A study of Populus tremula x Populus alba with 3 samples.

Results

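Of the 318 genes that the authors' deposited table lists as differing between apices of hybrid poplars over-expressing CsDML and wild-type apices, 8 belong to the defence-type proteins and surface lipid genes described here. The 5 first members were given by gene ID: a Kunitz-type protease inhibitor, a thaumatin-like gene, a chitinase, an RPS2-like resistance gene and a GDSL lipase. A further 3 rows entered because the description of their Arabidopsis best hit names a GDSL lipase or a chitinase, or because the best hit is LTP1. RNA was sequenced from 3 libraries, 1 from each of the lines CsDML OX1 and CsDML OX3, which over-express CsDML, and 1 from wild type (WT). All plants were of clone 717-1B4, a Populus tremula x Populus alba hybrid, and apices were taken after 28 days in SD. The labels do not expand either short form; SD is taken here to mean short days, which bring poplar apices to growth arrest and bud set, and CsDML to be a chestnut gene of the DEMETER-like family, whose proteins excise methylated cytosine from DNA. The sources used here give neither the promoter of the transgene nor the number of plants behind a library.

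Plants carry a standing and inducible set of proteins that act against microbes and insects. Kunitz-type inhibitors block digestive proteases and in poplar form a large, wound-responsive family. Thaumatin-like proteins and chitinases belong to the pathogenesis-related proteins, and chitinases cut chitin, the wall polymer of fungi and the cuticle polymer of insects. Resistance genes of the RPS2 kind encode intracellular receptors that detect pathogen effectors. The outer surface of a shoot is covered by a lipid cuticle. GDSL-type lipases are a large family of esterases and acyltransferases, some of which polymerise cutin, and lipid transfer proteins are small secreted proteins that bind lipids and are abundant in the epidermis. During bud set the apex of poplar becomes enclosed by bud scales.

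For each gene the deposited table gives 1 log2 fold change (CsDML OX over WT), 1 mean level as log2 CPM (CPM, read counts scaled to the size of the library), a p-value and an adjusted p-value, and no value per library or line. Levels for the 2 groups are therefore worked out here from the mean level and the fold, taking the mean as that of 2 CsDML OX libraries and 1 WT library. An approximate standard error (SE) is the log2 fold change divided by the normal quantile of the authors' p-value. It reflects the spread the authors' test assumed, and with 1 WT library it does not measure how WT apices vary. All listed rows passed the same adjusted p limit, so the quantile differs little among the members (3.58 to 4.83). The SE therefore largely follows the fold, and every approximate 95% interval built from it excludes no change by that selection. CPM is not scaled to gene length, so where genes are ordered by level the order is one of reads and not of transcripts. The depth of the libraries is unknown. A gene is said to have risen where the authors' adjusted p is under 0.05, and to be listed higher where it lies between 0.05 and 0.1. The members were chosen from this contrast with their values known, so their counts and folds are a description of what was listed, and no test was added.

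The authors' deposited table has all 8 genes higher in CsDML OX apices, and 5 rose: the Kunitz inhibitor, the thaumatin-like gene, 1 of 2 chitinase-type genes and both GDSL lipases. The 3 others, the second chitinase-type gene, the RPS2-like gene and the LTP1-like gene, were listed higher without reaching 0.05. Of the 41335 genes the authors tested, 0.104% rose and 0.387% fell, and 0.191% were higher at an adjusted p under 0.1. Every member was taken from the listed rows, so nothing is read from its count beside these shares. Folds ran between 2.05 for the second chitinase-type gene and 6.60 for the RPS2-like gene. The median log2 fold change of the 8 was 1.68, against 1.56 over all 79 genes listed as higher. Whether the apices held more cells that express these genes, or the same cells held more of the RNA, cannot be told apart in bulk tissue.

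**Figure D1:**
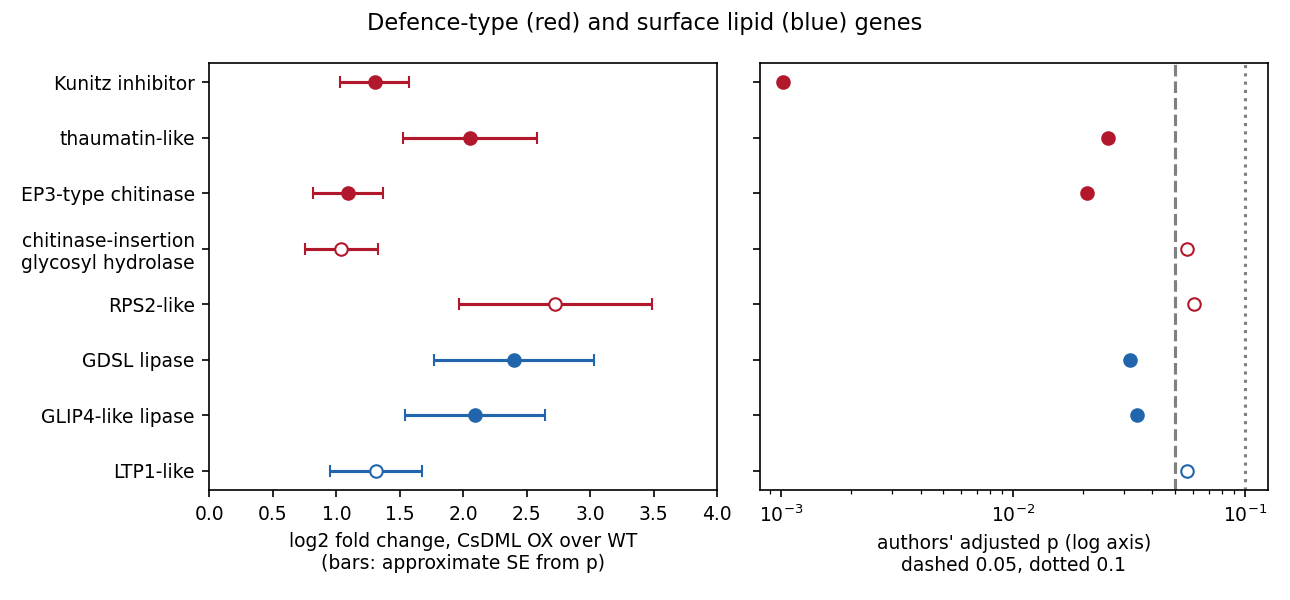
The left panel plots the log2 fold change (CsDML OX over WT) of each gene with its approximate SE as a bar, and the right panel the authors' adjusted p on a log axis; filled points are genes with an adjusted p under 0.05 and open points those above it. The steepest folds, 2.06 to 2.72 on the log2 scale, have the widest bars, and the Kunitz inhibitor has the smallest adjusted p, 0.00102. The SE is computed from the fold, so wide bars on steep folds are largely built in.

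The Kunitz-type gene (Potri.004G067800, chromosome 4 by its ID, best hit AT1G17860) had a mean log2 CPM of 9.40, or 678 CPM. Its worked-out level was 845 CPM in CsDML OX and 343 CPM in WT. It rose 2.46-fold (log2 fold change 1.30, approximate SE 0.27, adjusted p 0.00102, from the authors' deposited table). The approximate 95% interval of that fold is 1.71 to 3.55. Only 2 of the 318 listed genes had a higher mean level. The table lists 4 genes within 1 log2 CPM unit of it, itself included, and all 4 were higher in CsDML OX. They span 0.94 to 4.13 on the log2 scale, and the Kunitz gene is the third in that order. By p-value it ranks 54 among the 318 listed genes, ahead of the other 7 members.

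The thaumatin-like gene (Potri.001G221500, chromosome 1, best hit AT1G20030) is related to the pathogenesis-related proteins that permeabilise fungal membranes. Its mean log2 CPM was 2.41, and the worked-out levels were 7.11 CPM in CsDML OX and 1.71 CPM in WT. It rose 4.16-fold (log2 fold change 2.06, approximate SE 0.53, adjusted p 0.0256, from the authors' deposited table). Its approximate 95% interval ran from 2.03- to 8.51-fold.

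Both chitinase-type genes were at higher counts and had smaller folds. The first (Potri.019G093900, chromosome 19) has as its best hit EP3 (AT3G54420), a class IV chitinase named after a carrot protein that rescues arrested somatic embryos. It had a worked-out level of 181 CPM in CsDML OX and 85.1 CPM in WT, and rose 2.13-fold (log2 fold change 1.09, approximate SE 0.27, adjusted p 0.0208, from the authors' deposited table). The second (Potri.006G188300, chromosome 6) has as its best hit AT4G19810, a glycosyl hydrolase with a chitinase insertion domain. Its worked-out level was 69.5 CPM in CsDML OX and 33.8 CPM in WT. It was listed at 2.05-fold (log2 fold change 1.04, approximate SE 0.29, adjusted p 0.0563, from the authors' deposited table), just outside the 0.05 limit. The fold of both genes is nearly the same, and their approximate intervals, 1.47 to 3.10 and 1.39 to 3.04, also overlap widely. The difference between them was not tested.

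The RPS2-like gene (Potri.T065800, on unplaced sequence) takes its name from RPS2 (AT4G26090), the Arabidopsis receptor that recognises a bacterial effector through cleavage of its guard target RIN4. It had the steepest listed fold of the 8 and the largest adjusted p. Its mean log2 CPM was 1.55, with worked-out levels of 4.09 CPM in CsDML OX and 0.620 CPM in WT. It was listed at 6.60-fold (log2 fold change 2.72, approximate SE 0.76, adjusted p 0.0605, from the authors' deposited table). The approximate 95% interval of 2.35- to 18.5-fold is the widest of the 8. Resistance genes of this class occur in poplar as many similar copies, and the sources used here do not say how the authors assigned reads that match several of them.

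**Figure D2:**
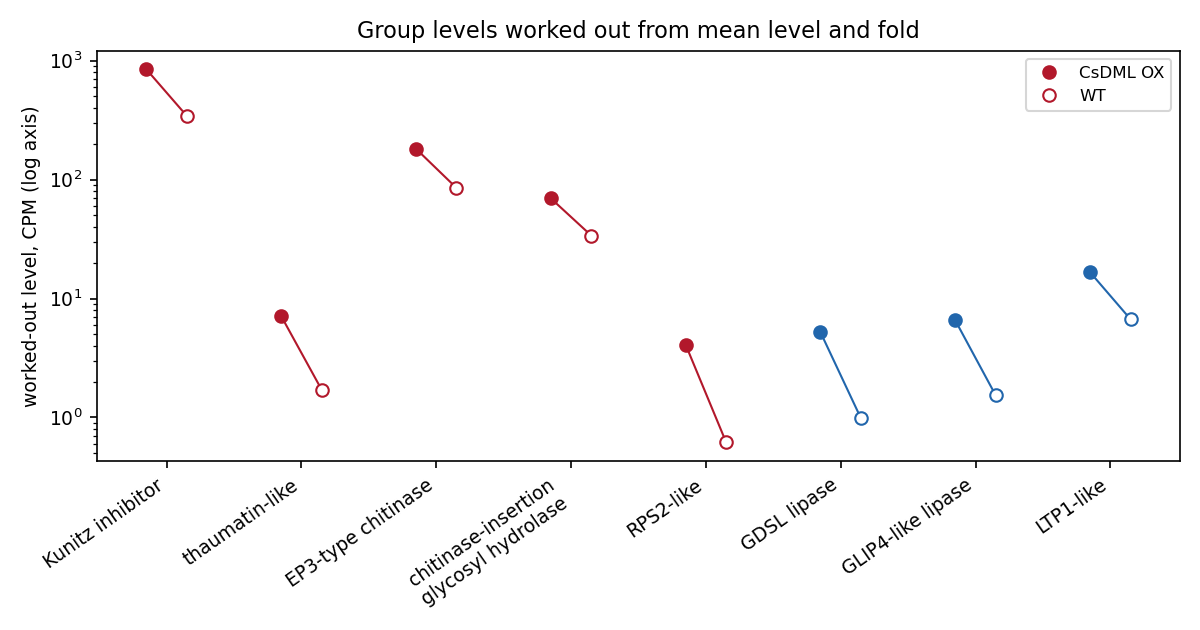
Worked-out levels in CPM on a log axis, CsDML OX (filled, left point of each pair) and WT (open, right point), joined per gene, with defence-type genes in red and surface lipid genes in blue; these are values computed from 1 mean and 1 fold per gene, not library measurements. The 4 genes with the lowest worked-out WT levels, 0.620 to 1.71 CPM, have the steepest lines. At a given mean a larger fold gives a lower worked-out WT level, so this relation is partly built in.

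The genes grouped here as surface lipid genes comprised 2 GDSL lipases, which both rose, and an LTP1-like gene. Their descriptions name a lipase or a lipid transfer protein and do not mention the surface. Whether these poplar genes act on surface lipids is not known here. The lipase Potri.018G089300 (chromosome 18, best hit AT5G45670) had worked-out levels of 5.21 CPM in CsDML OX and 0.986 CPM in WT. It rose 5.28-fold (log2 fold change 2.40, approximate SE 0.63, adjusted p 0.0321, from the authors' deposited table). The second lipase, Potri.018G063900, lies on the same chromosome by its ID and has GLIP4 (AT3G14225) as its best hit, a relative of the Arabidopsis lipase GLIP1, which acts in resistance to a fungus. Its worked-out levels were 6.55 CPM in CsDML OX and 1.53 CPM in WT, and it rose 4.27-fold (log2 fold change 2.09, approximate SE 0.55, adjusted p 0.0342, from the authors' deposited table). This is the member nearest to the 0.05 limit from below, and the second chitinase-type gene the nearest from above. The approximate intervals of both lipases, 2.25 to 12.4 and 2.02 to 9.04, overlap over most of their length, and the difference between the lipases was not tested.

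LTP1 (AT2G38540) encodes a lipid transfer protein of the epidermal cell wall in Arabidopsis. The poplar gene with this best hit (Potri.006G108100, chromosome 6) had a mean log2 CPM of 3.74 and worked-out levels of 16.6 CPM in CsDML OX and 6.70 CPM in WT. It was listed at 2.48-fold (log2 fold change 1.31, approximate SE 0.36, adjusted p 0.0566, from the authors' deposited table). It is the single listed row among 7 epidermis marker symbols looked up (ML1, ATML1, PDF1, PDF2, FDH, CER6 and LTP1). Symbols outside the listed rows were not analysed here, so a shift in epidermis cannot be measured from these data. Of the markers of other tissues, 5 rows are listed, with adjusted p from the authors' deposited table. On the leaf list LHCA3 rose (adjusted p 0.00135) and PSAO was listed higher (0.0558). XCP1 of the xylem list fell (0.0489). Both homologues of HB-1, which was placed on the apex list, were lower without reaching 0.05 (0.0743 and 0.0955). The HB-1 best hit is described only as homeobox-1, so its rows are not read as a measure of apex tissue. No root or phloem marker symbol was among the listed rows. Their part in the results above was not tested.

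Other defence and surface lipid genes were sought by description and symbol among all 318 listed rows. The searches return only rows that hold their words or symbols. Listed rows of bordering function outside them, given under Other observations, went both ways. The defence search returned 4 rows, all higher, of which 2 rose. Of these rows 3 are members and the fourth is BG1 (Potri.016G057400), a beta-1,3-glucanase, an enzyme class that cuts callose and fungal wall glucans and is counted with the pathogenesis-related proteins. BG1 had a mean log2 CPM of 8.14, and the authors' deposited table lists it at a log2 fold change of 0.90 (adjusted p 0.0957), the smallest change listed for any higher gene. The surface lipid search returned the 3 members above and no other row, with 2 that rose. The median log2 fold change was 1.68 in the defence search and 2.09 in the lipid search. Over all 318 listed rows it was -1.09, and 239 of them were lower. Every row of both searches except BG1 is a member, chosen with its value known. Nothing is therefore read from these medians or from the shared direction. Genes of wax synthesis, cutin synthesis and jasmonate or salicylate signalling that were in the searches by symbol or description had no listed row, which does not show that they did not differ.

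Among the 8 genes, folds were larger where levels were lower. The 4 genes with a mean log2 CPM under 3, namely the RPS2-like gene, both lipases and the thaumatin-like gene, had log2 fold changes of 2.06 to 2.72. The 4 with higher levels had 1.04 to 1.31. Spearman's rho between level and fold across the 8 genes was -0.90, and across all 79 listed higher genes it was -0.68. Both are descriptions across genes that share the same libraries and the same adjusted p limit, which lets a gene with few reads into the table only with a large fold. Among listed genes within 1 log2 CPM unit, the smallest higher change was 1.93 at the level of the RPS2-like gene, 1.07 at that of LTP1 and 0.90 at that of the EP3-type chitinase. The part of read depth in the order of the 8 folds was not tested. No member was the smallest listed rise at its level, and none was the largest: the RPS2-like gene ranked 20 of 26 higher genes near its level, the thaumatin-like gene 14 of 19, LTP1 11 of 24 and the EP3-type chitinase 5 of 7.

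**Figure D3:**
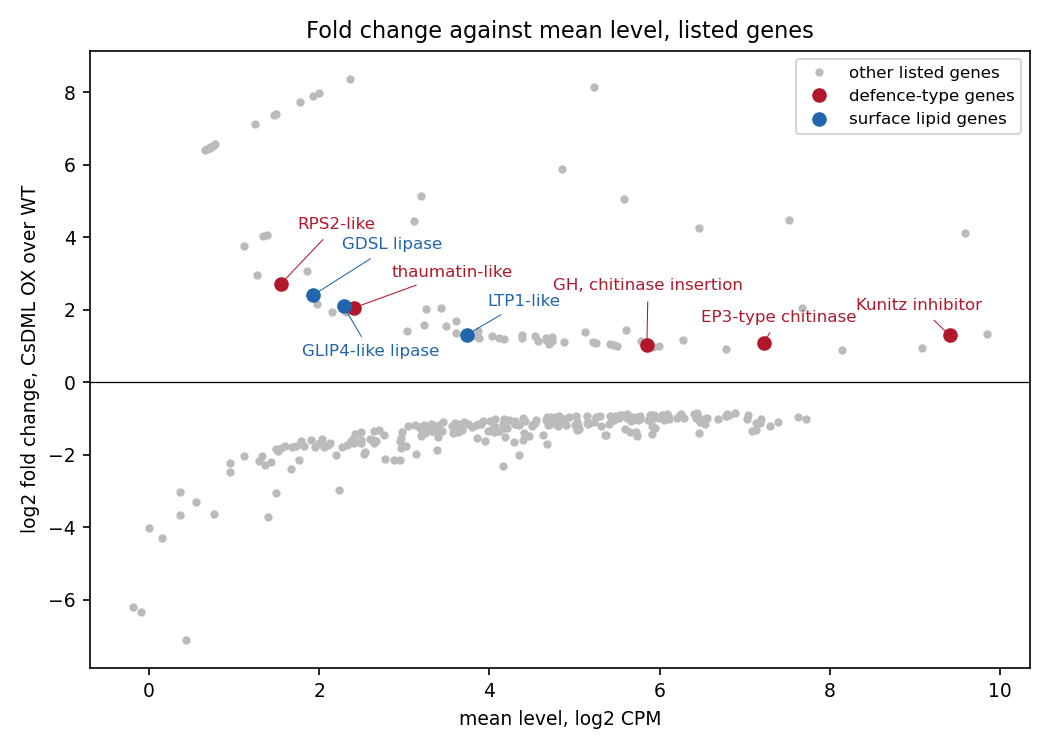
Log2 fold change (CsDML OX over WT) against mean level in log2 CPM for the 318 listed genes, with defence-type genes in red, surface lipid genes in blue and all others in grey. The 4 genes under a level of 3 lie between 2.06 and 2.72, and the 4 above it between 1.04 and 1.31.

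The genes do not lie together. By their IDs 7 of them fall on 5 chromosomes and 1 on unplaced sequence. No other listed gene lies within 2000 units of ID number of any placed member. The nearest listed neighbour is Potri.018G093000, 3700 units from the lipase Potri.018G089300. Each of the 8 has an Arabidopsis best hit that no other listed row shares. Listed poplar copies with a different best hit were not looked for.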

How the data were processed

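Total RNA of 3 apex libraries was made into directional libraries, per the labels' protocols. FastQC, TopHat and edgeR appear in the submitters' processing notes with no version. The sources used here do not give the build, annotation, read counter, strand setting or kind of test. Per the file headers, the deposited values are a log2 fold change, a mean level in log2 CPM, a p-value and its FDR, 1 each per gene. Base 2 is read from the authors' column names, which are those of edgeR. The number of genes tested, 41335, was recovered from the deposited p-values, ranks and adjusted p-values, and Benjamini-Hochberg values recomputed over it matched the deposited ones in 318 of 318 rows (relative tolerance 1e-06). The files hold no counts, so no count test was run. Members, lists and searches were chosen with earlier results of these data known. All members are named, with up to 4 further rows per search, the listed rows of the marker lists and the nearest neighbour by ID. Any other row named is marked as picked once its value was known. Computations used Python 3.11.15, pandas 2.3.3 and scipy 1.17.1, and were tested on simulated data. No sequences were used.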

Additional observations from a re-analysis of the deposited data

How the results depend on the processing

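Of the 8 genes, 5 rose at an adjusted p under 0.05 in the authors' deposited table, 1 (the Kunitz inhibitor) at 0.01 and 8 at 0.1. Every listed row has an adjusted p under 0.1, so the count at that limit could not be below 8. Requiring a log2 fold change of at least 1 or a mean log2 CPM of at least 1 left 5. Neither cut could remove a member, since the lowest member values are 1.04 and 1.55. A wider description search found no further row and left 5, and the 5 genes given by ID alone held 4. Without the 4 genes at a mean level under 3, an alternative chosen after seeing the data, 2 rose. By symbol only, 0 rows rose in the defence search and 0 in the surface lipid search, against 2 in each. A single row entered each, the RPS2-like gene (adjusted p 0.0605) and the LTP1-like gene (0.0566), and neither reached 0.05 in the authors' deposited table. Equal weight for both groups raised the worked-out levels of CsDML OX and of WT alike by 1.12 to 1.25 times, and left 3 genes, not 4, with a WT level under 2 CPM. Tests on counts and leaving out a library were not run, because the table has no value per library. No paired analysis was possible because the table holds 1 value per gene for the whole comparison. The depth of the libraries is unknown. The approximate SE, which largely follows the fold, was 0.53 to 0.76 for the 4 genes with a mean log2 CPM under 3.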

Other observations

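The genes below were chosen after their values were seen, from listed rows whose known functions border on those of the 8 genes. Of all 318 listed rows 239 were lower, and 160 of the 203 with an adjusted p under 0.05 fell in the authors' deposited table, so a lower direction is what most listed rows have, and nothing is read from the counts below. Callose synthases make the beta-1,3-glucan that glucanases cut. Of 4 listed glucan synthase-like rows 3 fell, and the log2 fold changes of all 4 ran from -1.63 (Potri.001G012000, adjusted p 0.0255) to -0.89 (Potri.003G214200, adjusted p 0.0745) in the authors' deposited table. Beside BG1, a second row, Potri.001G255100, has as its best hit a beta-1,3-glucanase of Arabidopsis (AT4G16260) and was higher in the authors' deposited table, at a log2 fold change of 0.98 (adjusted p 0.0859). The 4 listed rows described as leucine-rich repeat receptor-like or transmembrane protein kinases fell too, with log2 fold changes of -2.28 to -0.98 there. Kinases described in other words were not searched for. How many such kinases or glucan synthases were tested is not known here. Some kinases of this type sense microbes and others act in development, and the role of these poplar genes is not known here. Potri.018G032900, with ABCG40 (pleiotropic drug resistance 12) as its best hit, fell in the authors' deposited table, at a log2 fold change of -1.75 (adjusted p 0.0288).

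On the lipid side, both listed homologues of cytosolic acetyl-CoA carboxylase 1, which supplies malonyl-CoA for elongation of the fatty acids of waxes, were lower. The authors' deposited table has Potri.002G092700 at a log2 fold change of -1.01 (adjusted p 0.0185) and Potri.005G167400 at -1.10 (adjusted p 0.0859). Both homologues of DEK1, a calpain needed for epidermis identity in Arabidopsis, fell in the authors' deposited table, Potri.003G221100 with a log2 fold change of -0.99 (adjusted p 0.0267) and Potri.001G003900 with one of -0.97 (adjusted p 0.0316). These homologues and the 8 genes were all chosen with their values known, so no conclusion is drawn from their opposite directions. Potri.013G100700, of the phosphorylase superfamily, which in poplar includes bark storage and wound-induced proteins, had the highest mean level of the listed genes, a mean log2 CPM of 9.85, and the authors' deposited table has it risen by 1.32 on the log2 scale (adjusted p 0.000769), close in level and fold to the Kunitz inhibitor.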
